A study of Drosophila melanogaster with 24 samples.

Results

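The 12 arrays described here hold RNA of whole 3rd instar larvae of Drosophila melanogaster, out of 24 arrays in the series, and the other 12 hold adults. They were chosen by the labelled stage alone: 6 arrays came from hyperoxia-selected larvae and 6 from control larvae, with 3 populations of 2 arrays in each group. All populations descended from 27 pooled isogenic lines. The hyperoxia-selected ones were bred for many generations in chambers whose oxygen was raised in steps, and the generation-matched control ones in room air chambers. The O2 level in which the larvae were collected, their age in hours and their number per sample are given nowhere in the labels or methods used here, so selection and the oxygen of the culture cannot be told apart. A population is 1 chamber, and whether its 2 arrays came from separate collections is not given, so the spread between them may be partly technical.

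A 3rd instar larva is mostly a feeding animal. Its midgut digests food behind a chitin-containing lining, its fat body stores the products, and its epidermis secretes the cuticle that is shed at each molt. During the instar, successive pulses of the steroid hormone ecdysone switch on glue genes in the salivary glands, end feeding and prepare the new cuticle. Excess oxygen raises the production of reactive oxygen species, and insects meet these and other toxic compounds with peroxidases, glutathione S-transferases, cytochrome P450 enzymes and other detoxifying enzymes.

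Each probe set gave 1 signal per array, on a linear scale with no unit. The 20th percentile of all larval signals was 88.8. The median signal of an array ranged from 472.9 to 603.9 in hyperoxia-selected larvae and from 513.4 to 676.0 in control larvae. Of 39 markers of 7 larval tissues, 29 had a named probe set, and each of these was above 88.8 on at least 1 larval array. So was each of the 16 adult markers measured, so this does not set larval tissues apart. The summed signal of 6 midgut markers ranged from 532023 to 670758 in hyperoxia-selected larvae and from 528984 to 662423 in control larvae. That of 6 salivary gland markers ranged from 356033 to 618491 in hyperoxia-selected larvae and from 569979 to 730684 in control larvae. Adult markers gave signals as well. The sum of 9 yolk and eggshell markers ranged from 1714 to 5608 in hyperoxia-selected larvae, against 1967 to 22062 in control larvae. Its 2 highest values were on array 1 of control populations 1 and 3. The sum of 4 accessory gland markers was 398 to 883 in hyperoxia-selected larvae and 273 to 1528 in control larvae. That of 3 flight muscle markers was 196 to 745 in hyperoxia-selected larvae and 262 to 1950 in control larvae. For each of these adult sums, array 1 was above array 2 in every control population and in most selected ones. The cause was not tested. None of the 16 adult markers measured passed the test. Among the larval markers, the midgut genes Mal-A1 (higher) and mag (lower) passed.

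At a Benjamini-Hochberg adjusted p under 0.05 from limma, with population fitted as random block, 163 probe sets (0.868%) were higher and 146 (0.778%) lower in hyperoxia-selected larvae than in control larvae. The 309 are 1.65% of the 18769 tested. They stand for 271 named genes, 142 of them higher and 129 lower. An unadjusted p under 0.05 was found for 3043 probe sets, 1084 higher and 1959 lower. The rises had a median log2 fold change of 0.86 and the falls of -0.88, and 13 rises and 13 falls were over 4-fold. The rises lay on brighter probe sets, with a median signal of 7578, against 2564 for the falls and 595 for all probe sets. The median log2 fold change of all probe sets was -0.11. Centring each array on its median moved it by 0.18, and 164 probe sets were then higher and 27 lower. After quantile normalization, 188 were higher and 106 lower. In the values as deposited, 52.8% of the calls were rises, against 85.9% after median centring and 63.9% after quantile normalization. Of the 309 calls, 42 held without any 1 of the 6 populations, 31 rises and 11 falls. The p-values rest mostly on the spread between arrays, since the correlation within a population was 0.153. With the 2 arrays of each population averaged, 3 populations against 3 gave 0 calls by limma (2257 at an unadjusted p under 0.05), so none of the calls named here held on the spread between populations alone.

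The raw gene, a brake on JNK signalling first known from the closure of the embryo's back, had the lowest p of all probe sets. Its signal was 18724 and 18149 on the arrays of hyperoxia-selected population 1, 21381 and 24703 in population 2, and 30540 and 29066 in population 3. In control larvae it was 5920 and 5184, 5650 and 5623, and 4238 and 5148. The dimmest selected array was above the brightest control array, and the log2 fold change was 2.15 (standard error, SE, 0.16, adjusted p = 0.000372 from limma).

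CG43980 had the largest of the rises. Its signal averaged 2411 ± 768 in hyperoxia-selected larvae and 252 ± 120 in control larvae (SD, n = 6 arrays each), a log2 fold change of 3.38 (SE 0.43, adjusted p = 0.0047). CG42699 averaged 863 ± 389 in hyperoxia-selected larvae and 94.2 ± 48.9 in control larvae, with 3 of its 6 control arrays under 88.8, and its log2 fold change was 3.23 (2.81 with every signal set to at least 88.8). The other probe set of CG42699 averaged 379 ± 89.8 in hyperoxia-selected larvae and 301 ± 142 in control larvae and did not pass (0.44, adjusted p = 0.588). CG5550 had signals from 34037 to 77974, with a median of 51365, in hyperoxia-selected larvae and from 5930 to 14727, with a median of 8961, in control larvae. Its neighbour on the chromosome, CG34460, had signals from 842 to 2346 in hyperoxia-selected larvae, against 222 to 389 in control larvae. The log2 fold changes of this pair were 2.45 and 2.10. CG31869 was under 88.8 on all 6 control arrays, so its log2 fold change of 2.33 has no exact size, and it was 1.39 with the floor at 88.8. CG14247 (2.03), CG42335 (1.90 and 1.66 at its 2 probe sets) and CG6996 (1.87) were bright in both groups. The array groups did not overlap for any of the 12 largest rises, which follows largely from how they were chosen, since 300 of the 309 calls were so separated (over all probe sets, the 6 selected arrays were above the 6 control arrays in 1.85%). Without single populations, the adjusted p of CG42699 was 0.0504 to 0.0891 (control populations 1 and 3 and selected population 2), that of CG31869 0.0759 and of CG6996 0.0611 (control population 3), and that of the brighter probe set of CG42335 0.0544 to 0.0823 (control populations 2 and 3 and selected population 2). The calls of raw, CG43980, CG5550, CG34460 and CG14247 held without any of them.

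**Figure D1:**
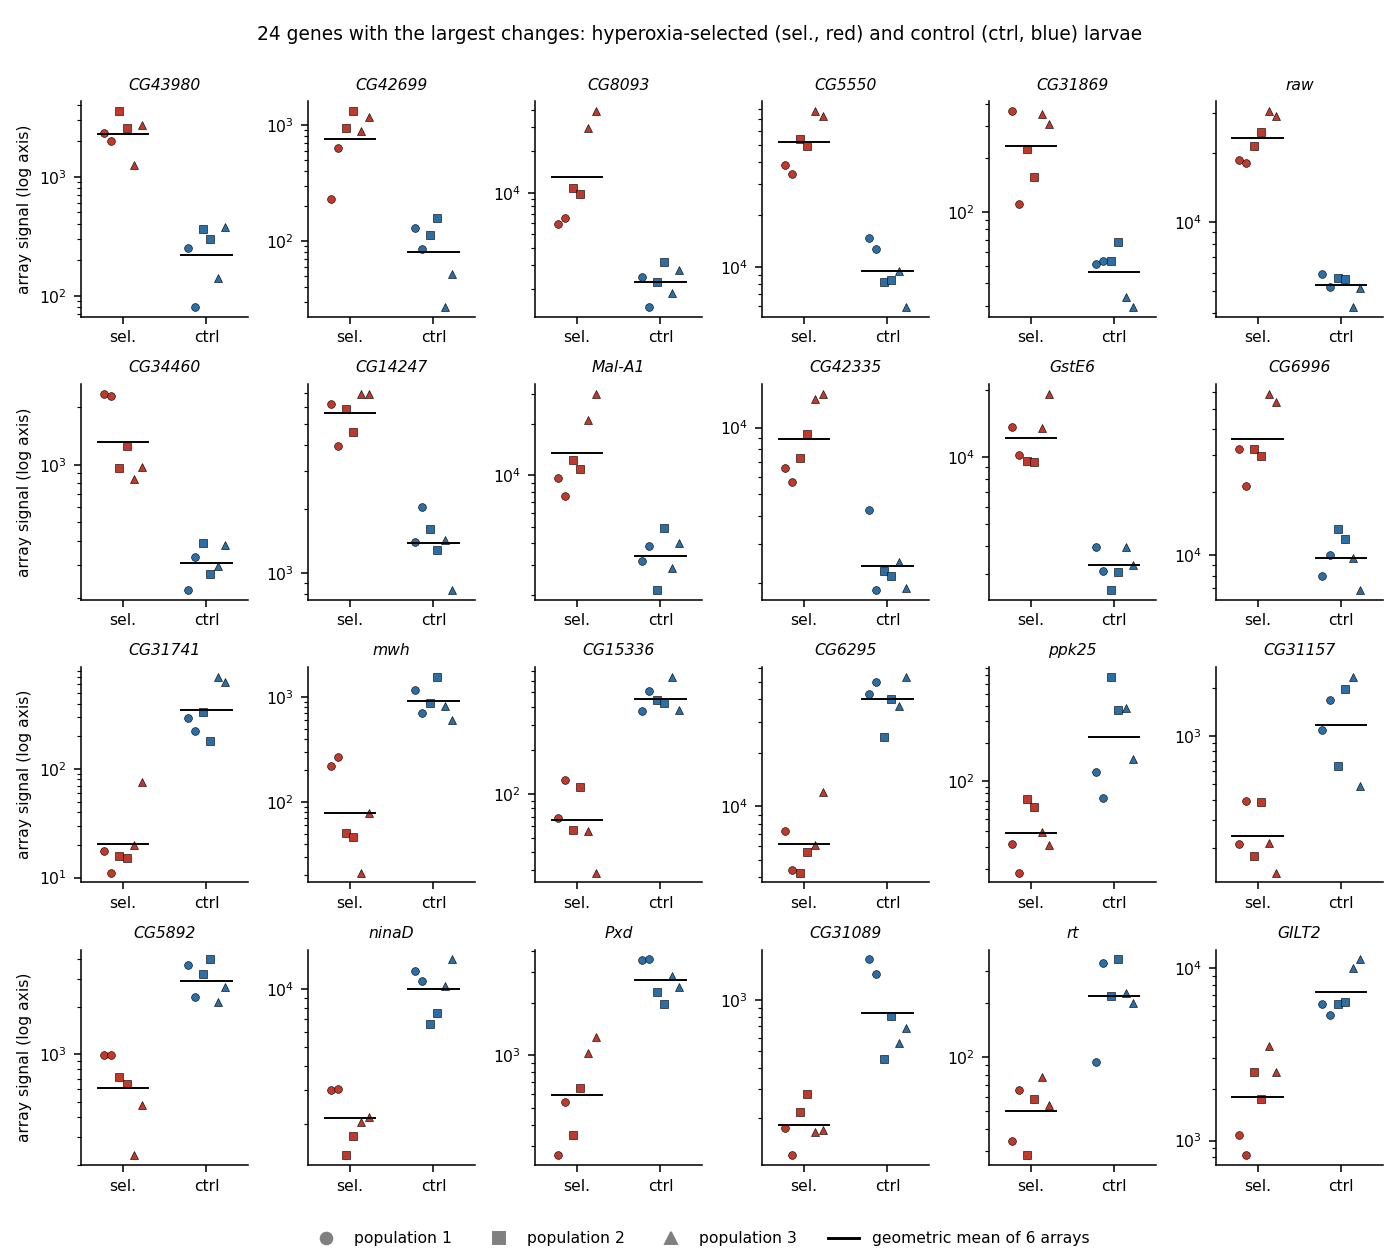
Array signals (log axis, no unit) of the 12 genes with the largest rises (top 2 rows) and the 12 with the largest falls (bottom 2 rows) in hyperoxia-selected larvae (red, left) and control larvae (blue, right). Each point is 1 array, its shape gives the population, and the line is the geometric mean of 6 arrays. The groups do not overlap in any panel, and CG8093 and Mal-A1 are highest in selected population 3.

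The largest falls included 2 neighbouring genes of the CD36 family of scavenger receptors. CG31741 had signals of 17.5, 11.1, 15.9, 15.1, 19.8 and 76.2 on the selected arrays, all under 88.8, and of 296, 222, 337, 182, 708 and 627 on the control arrays. Its log2 fold change was -4.10 (SE 0.51, adjusted p = 0.00421), or -1.97 with the floor at 88.8, so the fall has no exact size. The gene next to it, ninaD, takes up carotenoids, from which flies make the visual chromophore. Its signal ranged from 1377 to 3053 in hyperoxia-selected larvae and from 6619 to 14210 in control larvae, a log2 fold change of -2.22 (SE 0.25, adjusted p = 0.00291). The calls of CG31741 and ninaD held without any 1 population.

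Genes of other roles were among the largest falls. The signal of mwh, which keeps each wing cell to a single hair, ranged from 21.3 to 267 in hyperoxia-selected larvae and from 605 to 1564 in control larvae (log2 fold change -3.54, SE 0.59, adjusted p = 0.0154), at 1 of its 2 probe sets. On 4 of the 6 selected arrays it was under 88.8, and with the floor at 88.8 the log2 fold change was -2.87. The channel subunit gene ppk25 (-2.54) and the protein O-mannosyltransferase gene rt (-2.13) were under 88.8 on all 6 selected arrays. With the floor at 88.8 rt still passed (-1.30, adjusted p = 0.0398), and ppk25 did not (-1.38, adjusted p = 0.134). GILT2, which encodes a lysosomal thiol reductase, averaged 2025 ± 1009 in hyperoxia-selected larvae and 7554 ± 2414 in control larvae (SD, n = 6 arrays each, log2 fold change -2.01). CG15336 (-2.78), CG31157 (-2.32), CG5892 (-2.26) and CG31089 (-2.20) completed the falls outside the gut and peroxidase genes given further on. The groups did not overlap for any of the 12 largest falls either, for the same reason (over all probe sets, the 6 selected arrays were below the 6 control arrays in 2.27%). CG15336, under 88.8 on 4 of the 6 selected arrays (-2.22 with the floor at 88.8), kept its call without any 1 population. Without single populations, the highest adjusted p was 0.0966 for mwh, 0.11 for CG31157 and 0.0623 for CG5892 (selected population 2), 0.177 for ppk25, 0.123 for rt and 0.129 for GILT2 (control population 3), and 0.0606 for CG31089 (selected population 1). The calls of mwh, CG5892, rt and GILT2 were lost without 4 of the 6 populations, that of ppk25 without 5, that of CG31157 without each and that of CG31089 without 1. After median centring, ppk25 (adjusted p = 0.0711), CG31157 (0.064) and GILT2 (0.053) did not pass.

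Genes of digestion moved in opposite directions. Of 16 maltase, amylase and lysosomal mannosidase genes, 2 were higher and none lower, against 1.17% of all genes higher and 1.03% lower (2.19% in all), and the median log2 fold change of the list was 0.63, against -0.12 for all genes. Mal-A1, a maltase of the midgut, had signals of 9614 and 7535 in hyperoxia-selected population 1, 12271 and 10873 in population 2 and 21199 and 30006 in population 3. The control arrays ranged from 2137 to 4914, and the log2 fold change was 2.00 (SE 0.35, adjusted p = 0.0188). The glucosidase tobi, a target of insulin-like and glucagon-like hormones, averaged 3436 ± 1378 in hyperoxia-selected larvae and 1056 ± 241 in control larvae (SD, n = 6 arrays each, log2 fold change 1.65, adjusted p = 0.0154).

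Of 15 gut neutral lipases, 1 rose and 2 fell, against 1.17% of all genes higher and 1.03% lower. CG8093 ranged from 5911 to 39067 in hyperoxia-selected larvae, highest in population 3, and from 1486 to 3131 in control larvae. Its log2 fold change was 2.52 (adjusted p = 0.0228), and it was 1.83 to 3.05 without single populations. CG6295 went the other way, with 4248 to 11999 in hyperoxia-selected larvae, against 24660 to 53677 in control larvae (log2 fold change -2.70, SE 0.29, adjusted p = 0.00291). The lipase and cholesterol esterase mag averaged 44127 ± 10081 in hyperoxia-selected larvae and 76415 ± 3698 in control larvae (SD, n = 6 arrays each, log2 fold change -0.82, adjusted p = 0.0276, and 0.206 after median centring). Among 30 digestive serine proteases, the trypsin gene etaTry alone passed, with a log2 fold change of 0.52 (adjusted p = 0.0493, and 0.0673 after median centring). In whole larvae, fewer cells of a type and less RNA per cell cannot be told apart. CG6295 kept its call without any 1 population. The highest adjusted p without single populations was 0.112 for Mal-A1, 0.126 for CG8093 and 0.156 for mag (control population 3), 0.0731 for tobi (selected population 1) and 0.181 for etaTry (selected population 2). The calls of Mal-A1 and CG8093 were lost without 4 of the 6 populations, those of tobi and mag without 5 and that of etaTry without each.

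Most called members of the detoxification lists were higher in hyperoxia-selected larvae. Of 35 glutathione S-transferases, which join glutathione to reactive compounds, 3 were higher and none lower, against 1.17% of all genes higher and 1.03% lower, and the median log2 fold change was 0.17. GstE6 had signals from 9450 to 19184, with a median of 11872, in hyperoxia-selected larvae and from 2541 to 3963, with a median of 3180, in control larvae (log2 fold change 1.90, SE 0.20, adjusted p = 0.00291). GstD7 (1.10, adjusted p = 0.0373) and GstZ1 (0.68, adjusted p = 0.0382) rose less. GstD4, close in sequence to GstD7, had a larger log2 fold change and did not pass (1.94, adjusted p = 0.0623). Of 35 UDP-glycosyltransferases 3 were higher and none lower, namely Ugt36A1 (0.84, adjusted p = 0.00572), Ugt303B2 (0.79, adjusted p = 0.0373) and Ugt302C1 (0.73, adjusted p = 0.0217), with a median of -0.16 for the list. Of 81 cytochrome P450 genes, 4 were higher and 1 lower. Cyp6a20, known for its effect on aggression in adult males, averaged 1950 ± 237 in hyperoxia-selected larvae and 736 ± 180 in control larvae (SD, n = 6 arrays each, log2 fold change 1.43, SE 0.18, adjusted p = 0.00421). Cyp4p1 (1.18, adjusted p = 0.0167), Cyp6a17 (0.95, adjusted p = 0.0156) and Cyp9c1 (0.51, adjusted p = 0.0484) rose, and Cyp6t1 fell by 1.29 (adjusted p = 0.0214). The signal of Cyp6t1 was 478 to 1297 in hyperoxia-selected larvae and 1671 to 2191 in control larvae.

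GstE6, Cyp6a20 and Ugt36A1 kept their calls without any 1 population. The highest adjusted p without single populations was 0.157 for GstD7, 0.107 for Cyp4p1, 0.0828 for Cyp6a17, 0.236 for Cyp9c1 and 0.112 for Cyp6t1 (control population 3), 0.147 for GstZ1 and 0.129 for Ugt303B2 (selected population 1) and 0.114 for Ugt302C1 (selected population 2). The calls of Cyp4p1 and Cyp6a17 were lost without 3 of the 6 populations, that of Ugt302C1 without 4, those of GstD7, Cyp9c1 and Cyp6t1 without 5, and those of GstZ1 and Ugt303B2 without each. After median centring, GstD7 (adjusted p = 0.063), GstZ1 (0.0708), Cyp9c1 (0.0546) and Cyp6t1 (0.0916) did not pass.

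**Figure D2:**
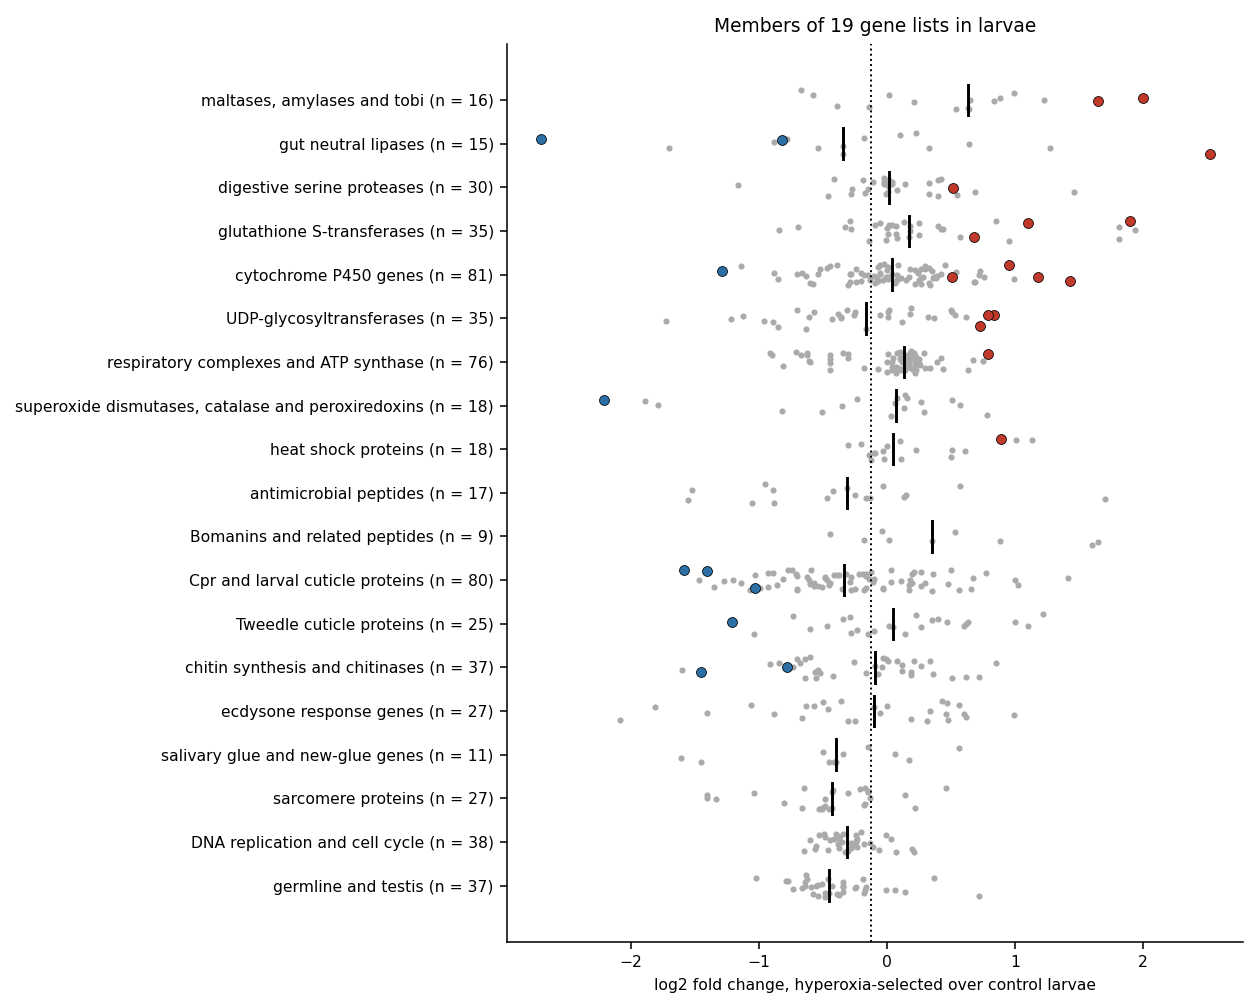
Log2 fold change (hyperoxia-selected over control larvae) of each member of 19 gene lists, 1 point per gene at its brightest probe set. Red points are members called higher, blue points members called lower and grey points the rest, the black bar is the list's median and the dotted line the median of all genes (-0.12). Called members are few in each list, most red points lie in the digestive and detoxification lists, and the called members of the cuticle and chitin lists are blue, with the called rise of Chs2 outside these lists.

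The listed cuticle genes that passed were lower in hyperoxia-selected larvae. Of 80 Cpr and larval cuticle protein genes, 3 were lower and none higher, against 1.03% of all genes lower and 1.17% higher. The list's median log2 fold change was -0.33, against -0.12 for all genes. After median centring it was -0.15, against 0.07 for all probe sets. The structural protein gene Cpr78E had signals of 6268 and 8549 in hyperoxia-selected population 1, 10265 and 13187 in population 2 and 21470 and 24968 in population 3, against 28802 to 47633 in control larvae. Its log2 fold change was -1.58 (SE 0.32, adjusted p = 0.0331). Cpr65Au fell by 1.40 (adjusted p = 0.0303) and Cpr78Ca by 1.03 (adjusted p = 0.0273). Of 25 Tweedle cuticle genes TwdlE was lower (-1.21, adjusted p = 0.0276), and the list's median was 0.05, so a single gene carries this count. Of 37 genes of chitin synthesis and breakdown, the chitinase Cht10 (-1.45, adjusted p = 0.0252) and knk, which is needed to organise chitin in the cuticle (-0.78, adjusted p = 0.0269), were lower. The list did not hold Chs2, the chitin synthase gene of the gut, which was higher (1.66, adjusted p = 0.00291). Cht10 averaged 1795 ± 614 in hyperoxia-selected larvae and 4736 ± 1168 in control larvae (SD, n = 6 arrays each). None of these 6 calls held without control population 3, when the adjusted p was 0.172 for Cpr78E, 0.174 for Cpr65Au, 0.148 for Cpr78Ca, 0.126 for TwdlE, 0.145 for Cht10 and 0.155 for knk, and none passed after median centring (adjusted p from 0.0513 for Cpr78Ca to 0.0834 for Cpr78E). Each was also lost without at least 4 of the other populations.

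Some genes that mark the later part of the instar had lower signals on most selected arrays without passing the test. Their lists held differences in both directions. Of 27 ecdysone response genes, 12 had a log2 fold change above 0 and 15 below, with a median of -0.10, close to that of all genes (-0.12). At an unadjusted p under 0.05 from limma, 1 of them was higher and 11 lower, against 1084 and 1959 of all 18769 probe sets. Of 11 glue genes 3 were above 0 and 8 below, with a median of -0.40. The ecdysone-induced gene ImpE2 had signals of 714, 326, 453, 426, 2386 and 1394 on the selected arrays and of 2971, 729, 3009, 2582, 5034 and 10047 on the control arrays (log2 fold change -2.08, adjusted p = 0.142). ImpE1, whose 6 selected arrays were all below its 6 control arrays at the brightest probe set, differed by -1.06 on the log2 scale (adjusted p = 0.0981), and ImpE3 by -1.81 (adjusted p = 0.162). The glue gene Sgs1 ranged from 5243 to 27460 in hyperoxia-selected larvae and from 24688 to 58077 in control larvae (log2 fold change -1.61, adjusted p = 0.108), and Sgs3 differed by -0.45 on the log2 scale (adjusted p = 0.192). None of 11 glue genes, 27 ecdysone response genes and 4 larval serum protein genes passed in either direction. Summed over the list, the ecdysone response genes gave 76075 to 139716 in hyperoxia-selected larvae and 115005 to 187318 in control larvae. In Cpr78E, ImpE2 and Sgs1 the selected arrays of population 3 lay above those of populations 1 and 2. The larvae's age is not given, and the part of stage in the cuticle calls was not tested.

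**Figure D3:**
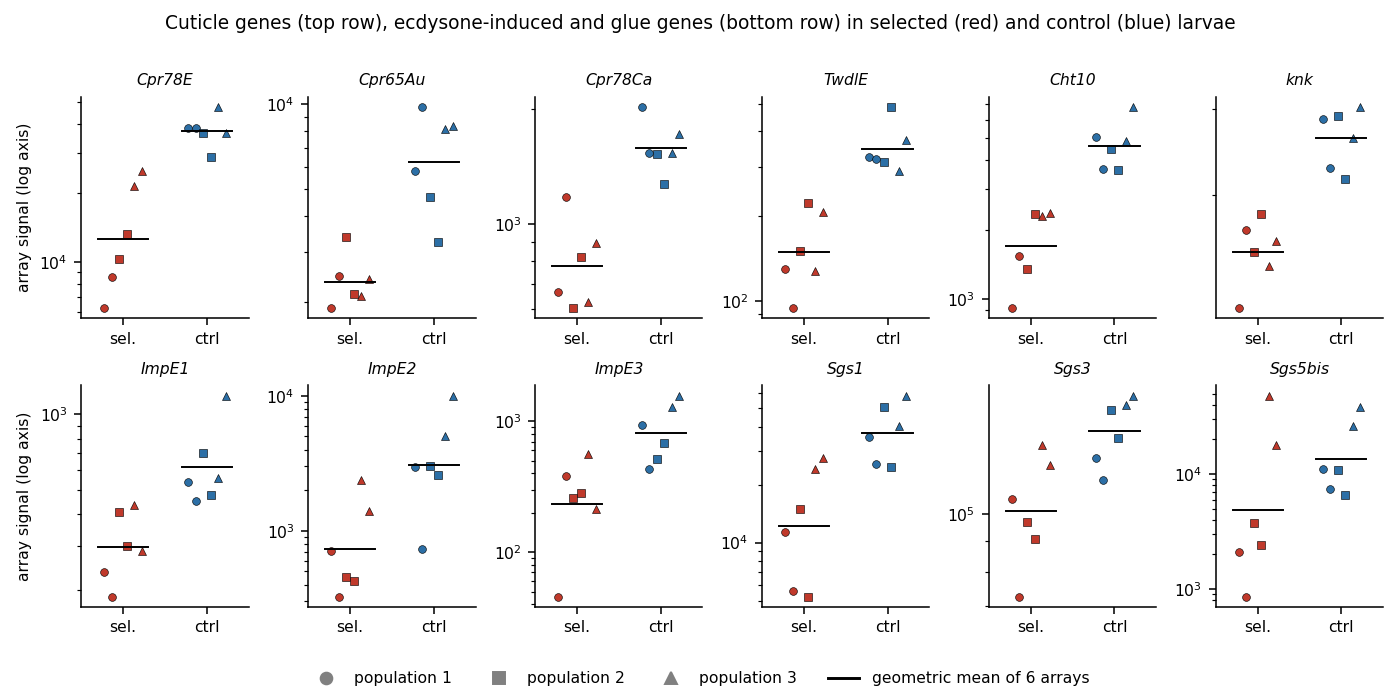
Array signals (log axis, no unit) of 6 called cuticle and chitin genes (top row) and of 6 ecdysone-induced and glue genes (bottom row) in hyperoxia-selected larvae (red, left) and control larvae (blue, right). Each point is 1 array, its shape gives the population, and the line is the geometric mean of 6 arrays. Cpr78E, ImpE2, Sgs1 and Sgs5bis are higher in selected population 3 than in selected populations 1 and 2.

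Antimicrobial peptide genes, which the Toll and Imd pathways switch on in infection, varied widely among arrays of 1 group. None of 17 passed, with log2 fold changes from -1.55 to 1.70. DptB had signals of 4561, 5250, 20472, 2533, 2117 and 20623 on the selected arrays and 20548, 32979, 10940, 10265, 22314 and 17619 on the control arrays (log2 fold change -1.52, adjusted p = 0.302). In selected populations 2 and 3 the 2 arrays of 1 population lay at opposite ends of this range. Mtk was highest on the same selected arrays, with 17522 and 17771 on the first array of selected population 2 and the second of population 3. Def was higher on the selected arrays of populations 2 and 3 (3004 to 14660) than on any control array (455 to 1630), while population 1 had 341 and 842 (log2 fold change 1.70, adjusted p = 0.326). AttA (-0.16, adjusted p = 0.92), AttC (-0.03, adjusted p = 0.99), AttD (-0.25, adjusted p = 0.86), CecC (-0.88, adjusted p = 0.528), Dro (-0.47, adjusted p = 0.788) and Drs (0.15, adjusted p = 0.945) did not pass either. Summed over the 17 genes, the signal was 69754 to 184003 in hyperoxia-selected larvae and 75854 to 160636 in control larvae. None of 9 Bomanins and related peptides passed, although their sum ranged from 59692 to 116545 in hyperoxia-selected larvae and from 36784 to 73083 in control larvae. Among 28 genes of the Imd and Toll pathways the protease gene SPE, which activates the Toll ligand, was higher (log2 fold change 0.79, adjusted p = 0.0173, and at most 0.112 without single populations, the highest without control population 3, with the call lost without 4 of the 6). Its signal was 1673 to 2764 in hyperoxia-selected larvae and 1097 to 1325 in control larvae. Over all genes, 1.17% were higher and 1.03% lower.

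JNK signalling and cell death genes were represented by 19 genes, of which 2 were higher and none lower, against 1.17% of all genes higher and 1.03% lower. They were raw and the caspase gene Damm (log2 fold change 0.98, adjusted p = 0.0493, 0.166 without selected population 2, with the call lost without each population, and 0.0694 after median centring). The phosphatase puc, a target and inhibitor of JNK, had signals of 7535 to 9816 in hyperoxia-selected larvae and 4275 to 7087 in control larvae, which do not overlap, and missed the threshold (0.65, adjusted p = 0.0504), which it passed after median centring (adjusted p = 0.024). The kinases hep (0.26) and bsk (0.07) and the transcription factor genes Jra (0.28) and kay (0.30) did not pass.

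A list of 18 genes held catalase, peroxidases, thioredoxins, their reductases, superoxide dismutases other than Sod1, and the helper genes Ccs, Gclc and Gclm. Of these genes, Pxd alone passed, against 1.17% of all genes higher and 1.03% lower. This peroxidase gene had signals of 266, 536, 348, 649, 1036 and 1272 on the selected arrays and 3549, 3563, 2315, 1975, 2853 and 2484 on the control arrays (log2 fold change -2.21, SE 0.38, adjusted p = 0.0171, and -1.93 at its other probe set, whose name marks probes that may bind related transcripts). The adjusted p was 0.112 without control population 3, and the call was lost without 4 of the 6 populations. Cat (0.08), Sod2 (0.29), Prx3 (0.27) and Trxr1 (0.51, adjusted p = 0.1) did not pass. Of 18 heat shock genes and cofactors, the co-chaperone gene stv was higher (0.89, adjusted p = 0.0434). Hsp68 had signals of 6988 to 9000 in selected populations 1 and 2, and of 1678 and 1525 in selected population 3, against 1559 to 2998 in control larvae (1.13, adjusted p = 0.27). Of 15 metal and iron genes, Tsf1, the iron carrier transferrin of the blood, was higher (0.68, adjusted p = 0.0223), with 15376 to 20966 in hyperoxia-selected larvae and 9774 to 12441 in control larvae. Of 11 oxygen sensing and globin genes, fau, first known as a gene that anoxia induces, was lower at its 2 brightest probe sets. The brightest averaged 38538 ± 5878 in hyperoxia-selected larvae and 57853 ± 6439 in control larvae (SD, n = 6 arrays each, log2 fold change -0.59, adjusted p = 0.0466), and the next fell by 0.74 (adjusted p = 0.0338). After median centring neither passed (adjusted p = 0.208 and 0.115). With control population 3 left out, the adjusted p was 0.196 for stv, 0.126 for Tsf1 and 0.179 for the brightest probe set of fau, and each of the 3 calls was lost without at least 5 of the 6 populations.

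Mitochondrial genes had small differences. Of 76 genes of the respiratory complexes and ATP synthase, 57 had a log2 fold change above 0. The list's median was 0.13, against -0.12 for all genes. SdhB, the iron-sulfur subunit of complex II, alone passed, against 1.17% of all genes higher and 1.03% lower. Its signal averaged 16276 ± 1854 in hyperoxia-selected larvae and 9398 ± 961 in control larvae (SD, n = 6 arrays each, log2 fold change 0.79, SE 0.12, adjusted p = 0.0103, with 0.0611 without control population 3 and 0.0549 without selected population 1). The other complex II subunits measured, SdhC (0.21) and SdhD (0.17), did not pass. None of 16 glycolysis genes, 6 glycerol 3-phosphate shuttle genes, 7 glycogen and trehalose genes, 19 fat storage genes and 71 mitochondrial ribosomal protein genes passed. The glycerol 3-phosphate dehydrogenase of mitochondria, Gpo1, had 0.80 (adjusted p = 0.104) in larvae and -0.71 (adjusted p = 0.0328) in adults, and these differed (adjusted p = 0.00205).

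The lists of cell division, germline and sarcomere genes held no calls and had medians below that of all genes (-0.12). Among 38 genes of DNA replication and the cell cycle none passed, 34 had a log2 fold change below 0, and the median was -0.31. After median centring the list's median was -0.13, against 0.07 for all probe sets. Of 37 germline and testis genes none passed and the median was -0.45. Their summed signal was 34137 to 82067 in hyperoxia-selected larvae and 39092 to 123722 in control larvae, and these ranges overlap.

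Of 27 sarcomere genes none passed, 24 had a log2 fold change below 0, and the median was -0.43, against -0.12 for all genes. After median centring the list's median was -0.25, against 0.07 for all probe sets. The sum of 4 body wall muscle markers ranged from 55761 to 126546 in hyperoxia-selected larvae and from 107652 to 133357 in control larvae.

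The remaining list members that passed were few. Over all genes, 1.17% were higher and 1.03% lower. In the imaginal discs list of 18 genes, the POU factor gene nub was higher (0.83, adjusted p = 0.0103) and the proneural gene sc lower (-1.28, adjusted p = 0.0315). Of 17 fatty acid elongases, CG9458 was lower (-1.23, adjusted p = 0.0484), and 15 had a log2 fold change below 0. The list's median was -0.46, and that of all genes was itself below 0 (-0.12). Of 41 cytosolic ribosomal protein genes RpLP0-like, related to a ribosomal stalk protein, alone passed (-0.51, adjusted p = 0.0388). The highest adjusted p without single populations was 0.0765 for nub (selected population 2) and 0.161 for sc, 0.167 for CG9458 and 0.209 for RpLP0-like (control population 3), and the call of nub was lost without 2 of the 6 populations and the others without 5. After median centring sc (adjusted p = 0.0892), CG9458 (0.101) and RpLP0-like (0.366) did not pass. Of the 45 lists, 24 had no member called.

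Junction genes of the gut and an enzyme group were chosen after their values were seen, so their counts carry no weight beyond the values. The midgut seals its cells with smooth septate junctions, whose known proteins are mesh, Tsp2A, hoka and Ssk. In hyperoxia-selected larvae mesh averaged 16007 ± 1279, against 9603 ± 1549 in control larvae (SD, n = 6 arrays each, log2 fold change 0.75, adjusted p = 0.0154). Tsp2A differed by 0.74 on the log2 scale (adjusted p = 0.028), hoka by 0.63 (adjusted p = 0.0382) and Ssk by 0.42 (adjusted p = 0.107). The spectrin gene kst (1.14, adjusted p = 0.0223) and the gut chitin synthase gene Chs2 (1.66, adjusted p = 0.00291) were higher. So was 1 of 6 probe sets of the junction scaffold gene pyd (1.51, adjusted p = 0.00572), while its brightest probe set had 0.00 (adjusted p = 0.996). The genes of the pleated septate junctions of the epidermis Nrx-IV (-0.58, adjusted p = 0.0547), kune (-0.48, adjusted p = 0.0828) and sinu (-0.43, adjusted p = 0.0918) did not pass. The summed midgut markers overlapped between the groups, although Mal-A1 among them was called higher and mag lower. The part of tissue makeup was not tested. With control population 3 left out, the adjusted p was 0.112 for mesh, 0.126 for Tsp2A, 0.179 for hoka and 0.112 for kst, and after median centring that of hoka was 0.0513. Each of these 4 was lost without at least 4 of the 6 populations. The calls of Chs2 and of the called probe set of pyd held without any 1 population.

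Aldehyde oxidases need a sulfurated molybdenum cofactor, which the product of mal supplies. The signal of mal was 3498 to 3982 in hyperoxia-selected larvae and 2130 to 2434 in control larvae (log2 fold change 0.71, SE 0.09, adjusted p = 0.00421). AOX1 averaged 12655 ± 1994 in hyperoxia-selected larvae and 4840 ± 1260 in control larvae (SD, n = 6 arrays each, log2 fold change 1.41, adjusted p = 0.00528). The other genes whose enzymes use this cofactor did not pass: AOX2 had -0.91 (adjusted p = 0.0549), AOX3 -0.05, AOX4 0.57 and ry, the xanthine dehydrogenase gene, -0.04. Sarm, a TIR-domain protein of axon degeneration, was higher at 4 of its 9 probe sets, the brightest with a log2 fold change of 1.52 (adjusted p = 0.00481). The calls of mal, AOX1 and this probe set of Sarm held without any 1 population.

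**Figure D4:**
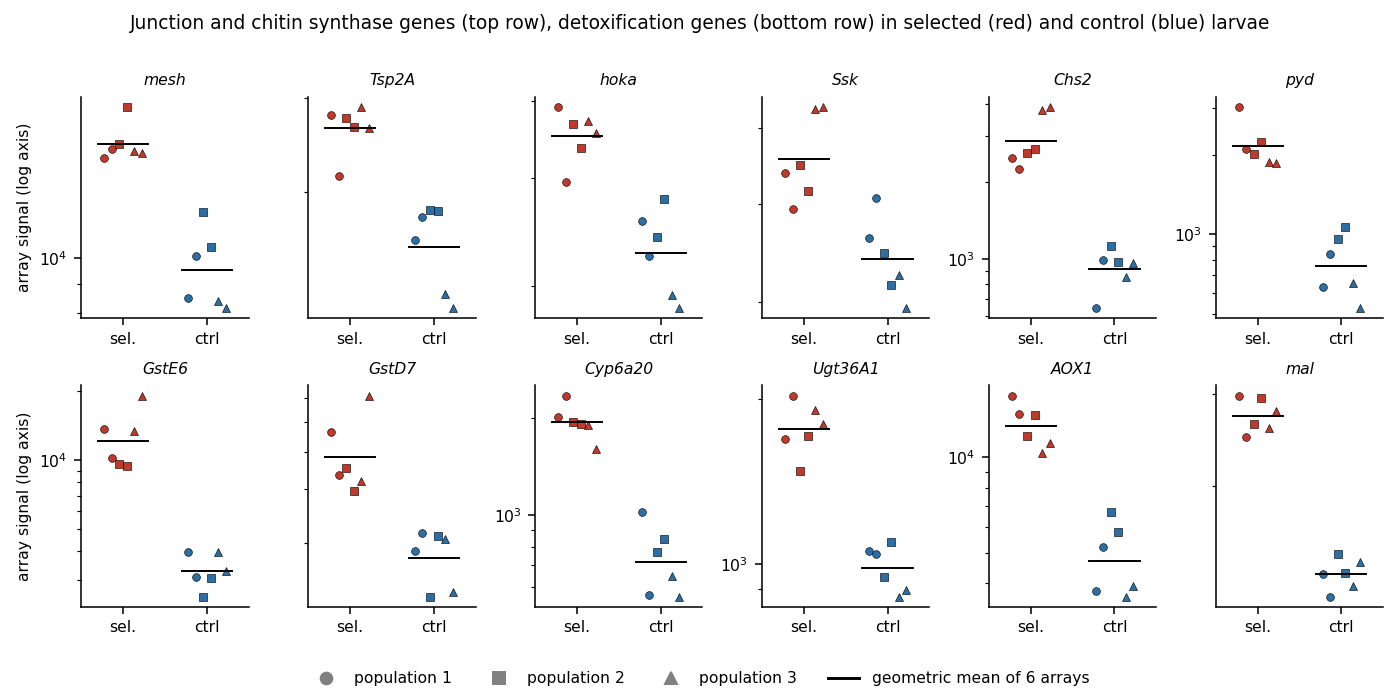
Array signals (log axis, no unit) of 6 junction and chitin synthase genes (top row) and 6 detoxification and aldehyde oxidase genes (bottom row) in hyperoxia-selected larvae (red, left) and control larvae (blue, right). Each point is 1 array, its shape gives the population, and the line is the geometric mean of 6 arrays. The called probe set is shown for pyd, which is not its brightest, and the brightest probe set for each other gene. The groups overlap for Ssk and for no other gene as shown.

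Tm1, Tmem214, UGP and Gpdh1, 4 of the genes that the study chose on adult arrays and followed up with mutants, did not pass in larvae. Tm1, a tropomyosin gene, averaged 55557 ± 10692 in hyperoxia-selected larvae and 61786 ± 1946 in control larvae (SD, n = 6 arrays each, log2 fold change -0.18, adjusted p = 0.591). Tmem214 differed by -0.40 on the log2 scale (adjusted p = 0.307), and UGP, dim on all larval arrays with 145 to 300 in hyperoxia-selected larvae and 44.5 to 304 in control larvae, by 0.50 (adjusted p = 0.645). The 4 probe sets of Gpdh1, the cytosolic glycerol 3-phosphate dehydrogenase, ranged from -0.38 to 0.34 (adjusted p = 0.338 to 0.97).

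The larval and adult differences shared few calls. Of the 309 larval calls, 5 were also called in adults, all in the same direction, which are 1.62% of the larval and 7.46% of the 67 adult calls (0.357% of probe sets). All 5 fell. CG6295 had a log2 fold change of -2.70 in larvae and -1.39 in adults, GILT2 of -2.01 in larvae and -0.62 in adults, and Cyp6t1 of -1.29 in larvae and -0.64 in adults. For mag it was -0.82 in larvae and -1.52 in adults, and for fau -0.59 in larvae and -0.72 in adults. A call in 1 stage only does not show a difference between stages, so the difference itself was tested over all 24 arrays, as the adult difference less the larval one. It passed for 369 probe sets (1.97%) and for 93 of the 309 larval calls, 47 rises and 46 falls. The larval difference by which these calls and the 24 genes with the largest changes were chosen is part of this test. A higher share among them is therefore no finding. The raw gene had a log2 fold change of 2.15 in larvae and 0.24 in adults (difference -1.90, adjusted p = 5.73e-06). GstE6 had 1.90 in larvae and 0.17 in adults (difference -1.73, adjusted p = 0.00023), CG42699 had 3.23 in larvae and -0.02 in adults (adjusted p = 0.00772), and CG8093 had 2.52 in larvae and 0.13 in adults (adjusted p = 0.0309). CG31741 was lower in selected larvae (-4.10) and had a positive log2 fold change in adults that did not pass (1.73, adjusted p = 0.259). The difference between the stages was 5.83 (adjusted p = 0.00023). Its signal was 35.7 to 224 in selected adults and 15.4 to 118 in control adults. Most control adult arrays were under 88.8, so this difference has no exact size. The difference passed for mwh (4.01, adjusted p = 0.0117) and rt (2.41, adjusted p = 0.00239) as well, although mwh was mostly under 88.8 in adults. In all, it passed for 11 of the 24 genes with the largest changes, although CG6295 (adjusted p = 0.186) and GILT2 (0.171) did not pass after median centring. Of the antimicrobial peptide genes, DptB had -1.52 in larvae and 4.53 in adults (difference 6.05, adjusted p = 0.0113), Mtk had -1.05 in larvae and 4.11 in adults (adjusted p = 0.021) and CecC had -0.88 in larvae and 4.09 in adults (adjusted p = 0.0403), while none of the 3 passed in the comparison of either stage alone. In selected adults, DptB had signals of 30030 and 1245 in population 1, 44732 and 941 in population 2 and 30364 and 34694 in population 3. Control adults had 260 to 673. Mtk and CecC were also far lower on array 2 than on array 1 in selected adult populations 1 and 2. In control adults CecC had 11.3 to 134, mostly under 88.8, so its adult log2 fold change has no exact size.

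**Figure D5:**
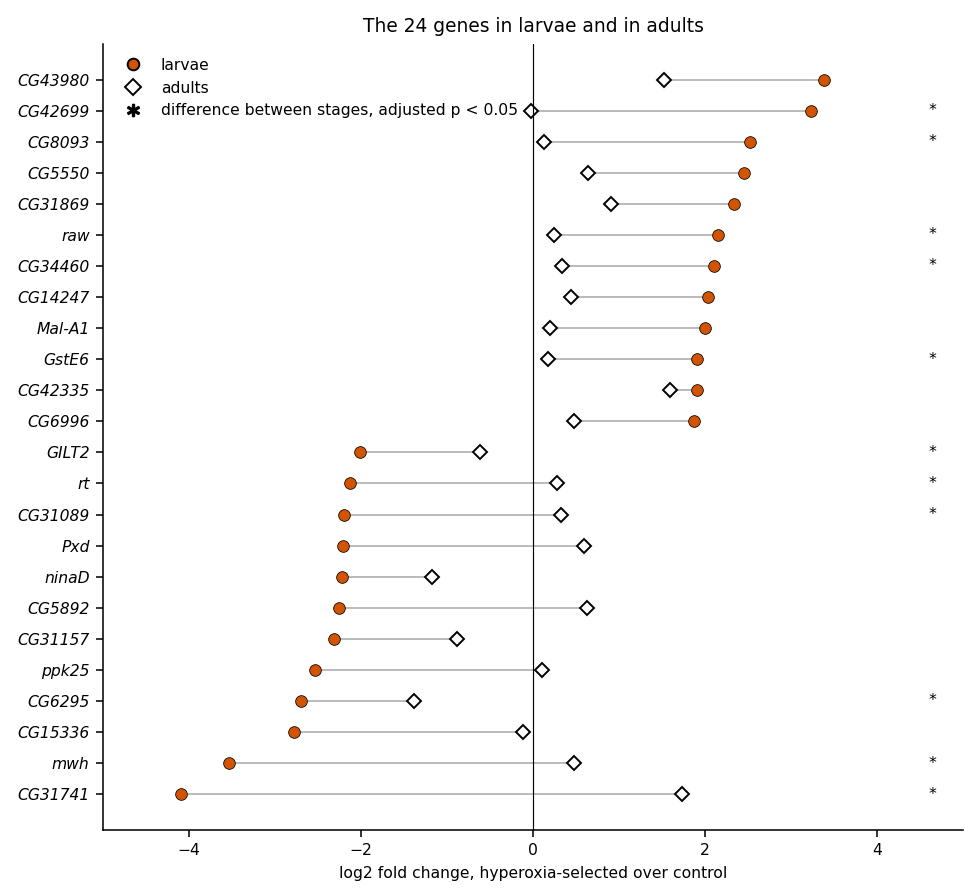
Log2 fold change (hyperoxia-selected over control) of the 24 genes with the largest larval changes, in larvae (filled circles) and adults (open diamonds). A star marks a difference between the stages at an adjusted p under 0.05, found for 11 genes. Since the genes were chosen for their larval size, adult values closer to 0 and the number of stars are no finding.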

How the data were processed

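RNA of whole larvae was hybridized to 1-colour Affymetrix Drosophila Genome 2.0 arrays. The authors deposited 1 intensity per probe set and array on a linear scale, already normalized between arrays, with nearly the same trimmed mean on every array. Their methods name both model-based expression indices (dChip) and RMA, and do not say how the deposited intensities were made, which may be by neither. The trimmed mean was 2500.1 on every array, while array medians ranged from 401.6 to 685.2 over both stages. No counts exist for arrays, so the number of arrays and populations limits the precision.

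Intensities were floored at 1 and log2 transformed. Of 18952 probe sets, 183 array controls were left out. limma 3.58.1 (R 4.3.3, lmFit and eBayes) compared 6 selected with 6 control larval arrays, with the population as a random block (duplicateCorrelation, correlation 0.153), and Benjamini-Hochberg adjustment ran over all 18769 probe sets. The difference between stages was the adult less the larval contrast over 24 arrays. The fit was tested on simulated data. Gene symbols came from the platform annotation and the RefSeq table of Release 6, with 13662 probe sets assigned 1 symbol, 402 several and 4705 none. Positions were used only for which genes neighbour each other. Tables were summarised with Python 3.11.15, pandas 2.3.3, numpy 2.4.6 and matplotlib 3.10.9.

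The genes with the largest changes were the 12 largest rises and 12 largest falls among called probe sets with 1 symbol, population means that did not overlap and a mean above the 20th percentile in at least 1 group. Members of 45 lists were counted at each gene's brightest probe set, after 7 genes that matched a list only by the form of their symbol were removed. The members and lists were chosen with earlier results of these data known. Alternatives changed the normalization, the floor, the filter on dim probe sets, the block, the test and the populations and arrays used.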

Additional observations from a re-analysis of the deposited data

Results flagged for a closer look

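In 286 groups of 6 larval arrays, 1 for each probe set named and each group, 19 had 1 array far from the others, and 5% of the groups, or 14.3, would be so by chance alone. The value given is the gap to the nearest array over the whole range of the group, which was above Dixon's critical value for 6 arrays in each case. In hyperoxia-selected larvae these were CG31741 (0.866, array 2 of population 3), Clic (0.782, array 2 of population 1), Cyp9c1 (0.686, array 1 of population 1), Def (0.694, array 2 of population 3), Lsp2 (0.798, array 1 of population 1), RpLP0-like (0.635, array 1 of population 2), Sgs5bis (0.642, array 1 of population 3), TpnC4 (0.639, array 2 of population 1), Tsp2A (0.666, array 2 of population 1), UGP (0.649, array 2 of population 2), mesh (0.741, array 2 of population 2), nub (0.673, array 1 of population 1) and pyd (0.673, array 1 of population 1). In control larvae they were CG10345 (0.630, array 1 of population 3), CG42335 (0.813, array 1 of population 1), CG42335 (0.743, array 1 of population 1), ImpE1 (0.662, array 2 of population 3), etaTry (0.653, array 2 of population 3) and ng1 (0.676, array 1 of population 1), where CG42335 appears with both of its probe sets. Array 2 of selected population 3 was at 76.2 for CG31741, against 11.1 to 19.8 on the other selected arrays.

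For some named genes the adult difference less the larval one passed at an adjusted p under 0.05 from limma over 24 arrays. It was below 0 on the log2 scale for CG34460 (-1.77), CG42699 (-3.25), CG8093 (-2.39), Chs2 (-1.61), Clic (-0.61), Cyp6a20 (-1.15), Gpo1 (-1.51), GstD7 (-2.38), GstE6 (-1.73), GstE9 (-1.36), Hex-C (-2.32), SPE (-0.91), Sarm (-1.12, -1.11, -1.25, -1.23), Socs44A (-1.03), Ugt302C1 (-0.78), mal (-0.62), pes (-0.59), puc (-0.68), pyd (-1.43), raw (-1.90) and tobi (-1.95). It was above 0 for CG31089 (2.52), CG31741 (5.83), CG6295 (1.32), CecC (4.97), Cht10 (1.82), CycB (0.67), DptB (6.05), GILT2 (1.40), Mtk (5.16), Pxd (2.79), dUTPase (0.69), mwh (4.01) and rt (2.41). Where a gene has several probe sets, the value is that of the probe set or sets that passed, which for Pxd is the dimmer one. After median centring, that for CG6295, CycB, GILT2, dUTPase, mal and pes did not pass.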

How the results depend on the processing

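No call among the genes named turned its direction under any alternative. The 309 calls (163 higher, 146 lower) became 191 (164 and 27) after median centring, 294 (188 and 106) after quantile normalization, 780 (345 and 435) with the floor at the 20th percentile, 454 (214 and 240) without dim probe sets, 598 (265 and 333) with arrays taken as independent, 867 (394 and 473) with trended and robust variances and 881 (335 and 546) in a fit of all 24 arrays. Population means gave 0 calls by limma (2257 at an unadjusted p under 0.05), as did array 1 alone (1897) and array 2 alone (1618), all 3 with fewer samples. The methods' t-test gave 0 at their fold and Bonferroni threshold (3816 unadjusted) and 908 (389 and 519) after Benjamini-Hochberg. Without 1 population the calls numbered 61 to 318, with 42 to 128 higher and 19 to 190 lower, fewest without control population 3 and most without selected population 3. Population numbers did not pair the groups (correlations of deviations 0.01, 0.05 and 0.20 for equal numbers), and the replicate block gave 1136 calls (449 and 687), among them all 309. The calls on the difference between stages (369, 190 above 0 and 179 below) became 328 (42 and 286) after median centring, 328 (101 and 227) after quantile normalization, 699 (387 and 312) with the raised floor and 301 (153 and 148) with arrays taken as independent. Of 73 called probe sets named, 50 kept the call after median centring, 61 after quantile normalization and 72 with the raised floor. The cause of these shifts was not tested.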

Other observations

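Chosen after their values were seen, genes outside the lists whose calls held without any 1 population included the cytokine signalling inhibitor gene Socs44A (1.19, adjusted p = 0.00291), the gap junction gene Inx7 (0.84, adjusted p = 0.00589), the chloride channel gene Clic (0.70, adjusted p = 0.00545) and the pseudouridine synthase gene Nop60B at the dimmer of its 2 probe sets (-0.85, adjusted p = 0.00364, and 0.0688 after median centring, with -0.10 at the brighter one).

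Of 13 class B scavenger receptor genes measured, CG31741 and ninaD fell and the other 11 did not pass, with log2 fold changes from -1.14 to 0.45 and adjusted p of 0.0549 or more. Among 11899 genes with a position, 263 of them called, 14 pairs of neighbours were both called, and 10 of these pairs moved in the same direction, such as CG5550 with CG34460 and ninaD with CG31741. How many pairs would be called without any link between neighbours was not computed. In 4 pairs the directions were opposite, as for CG43980 (3.38) and Cpr78E (-1.58).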
